A study of Mus musculus with 8 samples.

Results

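The transgenic effect on gene expression was compared between 2 cell populations of newborn mouse skin, the hair germ and the interfollicular epidermis (IFE). All 8 libraries of the series entered 1 fit of 4 groups, and the quantity tested was the transgenic minus control log2 fold change in hair germ, minus the same fold change in IFE, with the pup as the pairing between populations. This quantity is called the difference of effects. It is below 0 where a gene was raised less, or lowered more, in hair germ than in IFE. Of 23433 gene symbols in the count files, 14176 were expressed highly enough to be tested, and the description covers all of them.

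The transgenic pups, numbered 4 and 6, had both pTRE2-200bcl, which makes miR-200 when a doxycycline-bound transactivator switches it on, together with K14rtTA, which places that transactivator under the keratin 14 promoter of basal keratinocytes. Control pup 3 carried K14rtTA alone and control pup 5 carried pTRE2-200bcl alone, so the controls differed from each other in genotype and neither held both parts. All pups were at postnatal day 0.5, on a mixed strain background, and all dams received doxycycline in their chow during pregnancy. From the skin of each pup, cells were sorted that carried K14RFP, a red reporter protein driven by keratin 14, together with much α6 integrin on their surface. High P-cadherin then defined hair germ and low P-cadherin defined IFE, so each group held 2 libraries and each pup gave 1 library of each population. With 2 pups against 2, an exact permutation test of a single gene cannot give a two-sided p below 0.333, so the tests below rest on a spread shared across genes.

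The hair germ is the epithelial bud that grows down into the dermis to form a follicle under Wnt, Hedgehog and Bmp signals, and the IFE is the stratifying epithelium between the buds. The miR-200 family is made of 5 microRNAs that keep epithelial cells epithelial, chiefly by repressing the transcription factors Zeb1 and Zeb2. A microRNA finds its targets by its seed, bases 2 to 8, which pairs with sites in the 3′ untranslated region of messenger RNAs. The RefSeq mature sequences are shown because the seed sorts the family into the pair of site classes used further on, with the seed in capitals.

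miR-200b-3p: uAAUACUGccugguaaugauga

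miR-200c-3p: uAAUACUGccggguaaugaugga

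miR-429-3p: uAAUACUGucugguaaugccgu

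miR-200a-3p: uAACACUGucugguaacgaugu

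miR-141-3p: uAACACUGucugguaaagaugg

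The first 3 share the seed AAUACUG and the last 2 share AACACUG, a change of a single base. Of the genes with a called difference, Zeb2 on chromosome 2 (44983512 to 45117442, GRCm38) held the most sites that match a seed and the adenosine opposite the first base, 6 in a 3′ untranslated region of 4941 bases. An AAUACUG site and an AACACUG site of Zeb2 are printed with the 8 matching bases in capitals, from the minus strand of GRCm38 and the GENCODE M21 annotation, beside a site of Msn (moesin) on the plus strand.

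Zeb2 at chr2:44988100-44988123: cagtgcatCAGTATTAcgattcct

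Zeb2 at chr2:44988349-44988372: attttgtaCAGTGTTAaggcctaa

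Msn at chrX:96167908-96167931: atttttacCAGTATTAtatattct

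Each library held 7109871 to 14039583 gene counts, which were 23.4% to 42.4% of its recorded reads. Ribosomal RNA precursor (Rn45s) made up 30.6% of the gene counts in the IFE library of control pup 3 and 29% in that of transgenic pup 4, and 3.56% to 13% elsewhere. Ddx3y, a Y-linked gene, stood at 61.9 and 71.4 CPM (counts scaled by TMM to a common library size) in the libraries of pup 4 and at most 0.522 CPM in the other 6, so pup 4 was male by expression and the other 3 pups were not. The transgene was on in both populations. miR200primary, a feature the submitters counted for the miR-200 primary transcript, stood at 526 and 798 CPM in hair germ of pups 4 and 6 and at 607 and 714 CPM in IFE of the same pups. In controls 3 and 5 it stood at 0.176 and 1.4 CPM in hair germ and at 3.83 and 2.63 CPM in IFE. The difference of effects for miR200primary was 1.79 (log2, SE 0.69) with an edgeR adjusted p of 0.455, so the transgenic effect on it was not shown to differ between populations.

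The difference of effects passed the test for 86 genes, and 81 of them lay below 0, where the transgenic effect in IFE exceeded that in hair germ. Among the 81 were Vim, Zeb2, Tgfbr1, the macrophage genes Mrc1, Csf1r and C1qa, and lysosomal enzymes, whose effects in IFE passed as higher, as they did for 77 of the 81. The other 4 were Dusp6, Msn, Tgfbi and Tln1, named after their values were seen, and the effect on Tln1 was -0.96 in hair germ and 0.34 in IFE. The 5 genes above 0 were Igfbp3, Col12a1, Fat4, Tmem38b and Mir5109. Over all 14176 tested genes 0.607% passed (edgeR quasi-likelihood, Benjamini-Hochberg threshold 0.05), 0.571% below 0 and 0.0353% above. At an unadjusted p under 0.05, 564 genes lay above 0 (3.98%) and 734 below (5.18%). Without the pup as a block 19 genes passed (0.134%), all below 0 and all among the 86. The count depended on which libraries were kept. With a pup left out, both of its groups held a single library, and without the 2 libraries rich in Rn45s each IFE group did. Such counts are given further on, under how the results depend on the processing. The cause of their changes was not tested.

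**Figure D1:**
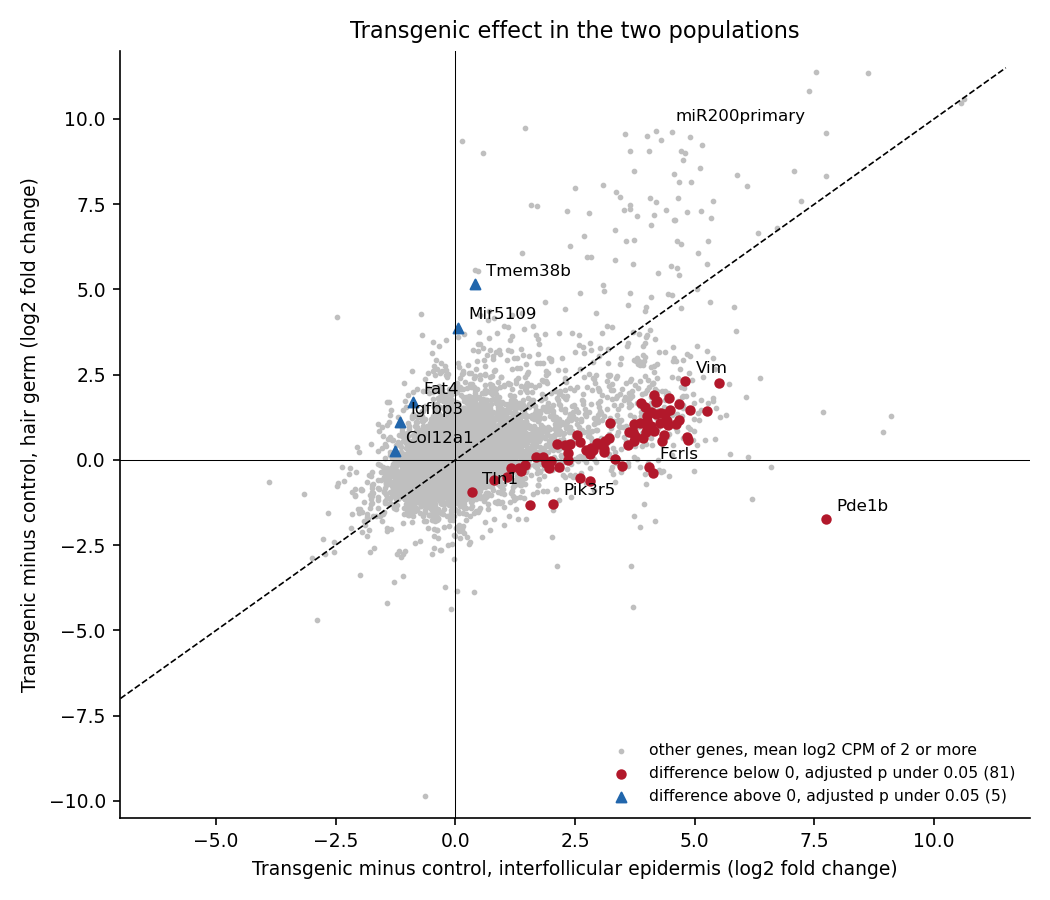
Transgenic minus control log2 fold change in IFE (x axis) and in hair germ (y axis), from the fit of 4 group means, for tested genes whose mean log2 CPM reached 2; the dashed line marks equal effects, and a feature or gene above it has a difference above 0. The 81 red circles lie to the lower right, with effects in IFE above 0, and the 5 blue triangles lie to the upper left.

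All 81 genes below 0 had an effect above 0 in IFE, with a median log2 fold change of 3.71, and 77 of them (95.1%) passed the test there as higher in transgenic pups. In hair germ the median effect of the same genes was 0.596, with 61 above 0 and 20 below, and 3 passed as higher, namely Vim, Ptprc and Fmnl1. In each of the 81 genes both IFE libraries of transgenic pups exceeded all 6 other libraries. Within a pup, the median over these genes of hair germ minus IFE (log2) was 0.0126 in control pup 3 and -0.0198 in control pup 5, and -2.64 and -2.83 in transgenic pups 4 and 6. The genes were chosen by a test of this quantity, which fixed the side on which the transgenic medians lie. The other values given here for the 81 genes describe the same chosen set and are no further evidence. Summed over the 81 genes, the level was 4229 and 3702 CPM in hair germ of control pups 3 and 5, 4663 and 4185 CPM in their IFE, and 5422 and 4088 CPM in hair germ of transgenic pups 4 and 6. The IFE of pups 4 and 6 held 31100 and 24740 CPM of the same genes. Differences ran from -9.28 to -1.31 on the log2 scale with a median of -2.72. The least extreme gene that passed below 0 had an adjusted p of 0.0483 and the first that did not had 0.0502.

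Of the gene lists, leukocyte markers had the most members among the genes below 0. Leukocytes of newborn skin include resident macrophages of the dermis and the Langerhans cells and T cells of the epidermis, cell types that do not make keratin 14, the gene whose reporter was used for the sort. Of 26 tested leukocyte markers, 7 passed below 0 and none above, which is 26.9% of the list against 0.571% of all genes, and 8.64% of the genes below 0. The median difference over the 26 was -2.54, against 0.0673 over all genes, with 21 below 0 and 5 above. The markers' own transgenic effects had medians of 1.57 in hair germ, where 8 passed as higher (0.762% of all genes did), and 4.2 in IFE, where 25 passed as higher (4.99% of all genes did). Their summed level was 239.9 and 101 CPM in hair germ of controls 3 and 5, 602.6 and 405.3 CPM in hair germ of transgenic pups 4 and 6, 379.6 and 178.2 CPM in control IFE, and 5771 and 4501 CPM in transgenic IFE. The leukocyte level was thus above the controls in both transgenic populations and highest in IFE, and its part in the other differences was not tested. In such bulk libraries more cells of a type and more RNA per cell cannot be told apart.

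Mrc1, the mannose receptor of tissue macrophages, stood at 59.7 and 15.9 CPM in hair germ of controls 3 and 5 and at 68.6 and 63.6 CPM in hair germ of transgenic pups 4 and 6. In IFE it stood at 60.6 and 26.7 CPM in controls and at 767 and 596 CPM in transgenic pups. The transgenic hair germ libraries lay just above the higher control, the IFE groups were far apart, and this gave a difference of -2.99 (SE 0.3, adjusted p = 0.00642). Itgam, the CD11b integrin of myeloid cells, stood at 20.8, 6.84, 32 and 17 CPM in hair germ of pups 3, 5, 4 and 6, where the genotypes overlapped. In their IFE it stood at 22.3, 6.62, 274 and 209 CPM, again far apart (difference -3.3, adjusted p = 0.00769). Fcrls, a scavenger receptor-like gene of microglia and other macrophages, was 14.9 and 4.32 CPM in control hair germ against 7.57 and 8.6 CPM in transgenic hair germ, and 14.3 and 3.99 CPM in control IFE against 162 and 115 CPM in transgenic IFE. Its effect was -0.22 in hair germ and 4.05 in IFE, and the difference was -4.17 (SE 0.47, adjusted p = 0.00769). Of the other markers that passed, Csf1r (the receptor for macrophage colony-stimulating factor), Cx3cr1 (the fractalkine receptor), C1qa (a chain of complement C1q), Ptprc (CD45) and Fcgr3 (an Fc receptor) had differences of -2.72, -3.07, -2.98, -2.69 and -3.74. The first 4 of these 5 were named after their values were seen.

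The 5 leukocyte markers above 0 had no reads in either control hair germ library. They were Itgb2, Sfpi1 (PU.1, the master regulator of myeloid cells), Trem2, Spp1 and Fcgr2b, named after their values were seen. Sfpi1 was at 8.8 and 7.03 CPM in transgenic hair germ, at 2.96 and 5.01 CPM in control IFE and at 90.1 and 75.3 CPM in transgenic IFE. Its fitted difference of 5.06 had an SE of 2.52 and an adjusted p of 0.603. A fitted fold change against a group at 0 depends on the prior count. With 3 counts assumed for that group, the differences of these 5 genes were at least 1.93 for Sfpi1, 1.88 for Fcgr2b, 1.72 for Itgb2, 0.85 for Trem2 and 0.17 for Spp1, and the list's median was again -2.54. Cd163, a marker of another macrophage subset, stood at 0 to 2.46 CPM in all 8 libraries.

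Other genes below 0 were named for the size of their difference, which fixes its direction, and form no list. Dock2, a Rac activator of leukocytes, stood at 5.71, 3.12, 5.37 and 7.51 CPM in hair germ of pups 3, 5, 4 and 6, and at 6.27, 4.58, 113 and 96 CPM in their IFE (difference -3.69, adjusted p = 0.0283). Pik3r5, a regulatory subunit of phosphoinositide 3-kinase gamma, had effects of opposite sign, -1.28 in hair germ, where the controls held 19.5 and 36.6 CPM and the transgenic pups 13.1 and 9.94 CPM, and 2.04 in IFE, where the controls held 7.31 and 21.7 CPM and the transgenic pups 73.1 and 53.2 CPM. The difference for Pik3r5 was -3.44 (SE 0.46, adjusted p = 0.014), while its effect in hair germ alone did not pass. Nlrp3, the sensor of an inflammasome, Fes, a tyrosine kinase, Fgd2, a Cdc42 activator, Rab3il1, a Rab exchange factor, and Tsc22d3, a glucocorticoid-induced gene, had differences of -4.34, -3.6, -3.74, -3.96 and -3.45, with adjusted p between 0.0258 and 0.048. A further 2 genes with large differences code for proteins of calcium signalling. Cacna1d, a voltage-gated calcium channel, stood at 14.3 and 5.91 CPM in control and 9.33 and 5.82 CPM in transgenic hair germ, while in IFE it stood at 4.7 and 2.46 CPM in controls and 70.4 and 47.1 CPM in transgenic pups (difference -4.4, adjusted p = 0.0148). Pde1b, a calmodulin-dependent phosphodiesterase, had the most negative difference of the genes that passed, -9.28 (SE 1.71, adjusted p = 0.0483). It stood at 34.9 and 20 CPM in transgenic IFE and at 0.174 and 0.0849 CPM in control IFE, which is a single read in each control library. The ratio of summed reads per scaled library size in IFE was 222, with an exact 95% interval of 61.1 to 1840 that covers counting error only.

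**Figure D2:**
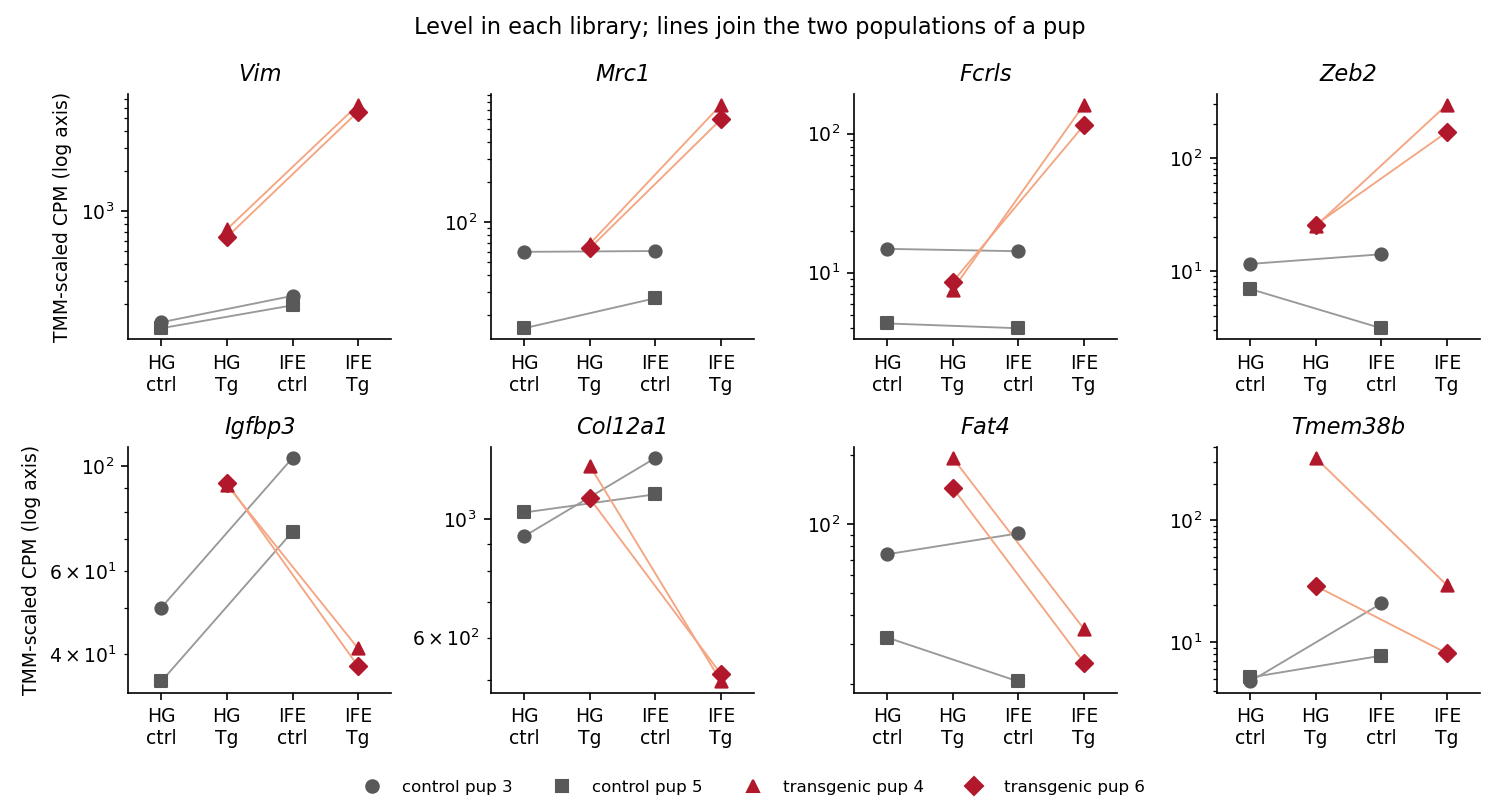
TMM-scaled CPM on a log axis in each of the 8 libraries for 4 genes below 0 (upper row) and 4 above 0 (lower row), with hair germ (HG) and IFE of control (ctrl, grey) and transgenic (Tg, red) pups; each line joins the populations of a pup. The transgenic lines climb from hair germ to IFE in the upper row and descend in the lower row.

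Of 9 tested genes that mark the change from epithelial to mesenchymal character, Vim and Zeb2 passed, both below 0, as did 0.571% of all tested genes. Vim, the intermediate filament of mesenchymal cells and leukocytes, had the smallest adjusted p of all genes. It stood at 146 and 132 CPM in control hair germ, 729 and 638 CPM in transgenic hair germ, 231 and 196 CPM in control IFE and 6306 and 5601 CPM in transgenic IFE. All transgenic libraries exceeded all control libraries, and the effect was 2.3 in hair germ and 4.8 in IFE, with a difference of -2.51 (SE 0.2, adjusted p = 0.00409, and 0.0284 without the block). Zeb2 stood at 11.6 and 6.98 CPM in control hair germ, 25 and 25.7 CPM in transgenic hair germ, 14.1 and 3.14 CPM in control IFE and 295 and 169 CPM in transgenic IFE. Its difference was -3.48 (SE 0.51, adjusted p = 0.0196, and 0.0974 without the block). Zeb1, the other principal target of the family, was near the detection limit in control hair germ at 0 and 0.997 CPM, and stood at 12.3 and 13.2 CPM in transgenic IFE. The difference for Zeb1 was -0.49 (SE 1.6, adjusted p = 0.974) and changed sign under other processing. Over the 9 tested genes of this list the median was -0.406, with 7 below 0 and 2 above. Vim and Zeb2 are also expressed by leukocytes, whose markers rose in the same libraries, and the part of these cells in their differences was not tested.

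Tgfbr1, the type I receptor for Tgf-beta, was the single member of 29 tested Bmp and Tgf-beta genes to pass. Over all tested genes 0.607% passed. It stood at 67.6 and 69 CPM in control hair germ, 91.6 and 91.4 CPM in transgenic hair germ, 96.3 and 99 CPM in control IFE and 495 and 465 CPM in transgenic IFE. The replicates of each group lay close together, and the difference was -1.87 (SE 0.23, adjusted p = 0.00982, and 0.0437 without the block). The median of the list was 0.257, against 0.0673 over all genes. Tgfb2, a ligand of that receptor, pointed the other way, at 24.8 and 11.8 CPM in control and 221 and 200 CPM in transgenic hair germ, and at 30.8 and 7.05 CPM in control and 49.2 and 67.7 CPM in transgenic IFE. Its difference of 1.7 (SE 0.41) had an adjusted p of 0.163.

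Most lysosomal genes lay below 0. The lysosome degrades material taken up by a cell, and macrophages hold many of them. Of 24 tested genes, 23 lay below 0 with a median of -1.53, and 6 passed (25% of the list, and 7.41% of the genes below 0). Of all 14176 tested genes, 6449 lay below 0 and 0.571% passed below 0, with a median of 0.0673. Ctsz and Ctss, a pair of cathepsin proteases, had differences of -3.21 (SE 0.36, adjusted p = 0.00834) and -2.77 (SE 0.38, adjusted p = 0.0148). Ctss stood at 35.3 and 13.8 CPM in control hair germ and 67.4 and 39.4 CPM in transgenic hair germ, and at 40.1 and 34.1 CPM in control IFE and 635 and 554 CPM in transgenic IFE. Hexa, a lysosomal glycosidase, Ctsc, a cathepsin, and Grn, progranulin, also passed and were named after their values were seen, with differences of -3.44, -1.84 and -1.65. Lamp1, a protein of the lysosomal membrane, had a difference of -0.4 (adjusted p = 0.651), and Psap, which encodes the saposin precursor, had one of -0.82 (adjusted p = 0.199). Cd68 belongs to both the lysosome and the leukocyte list.

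Interferon response genes, which detect or block viruses, lay below 0 in 16 of 18 members (6449 of all 14176 tested genes did) with a median of -1.83, and none passed. Counted with 3 counts where a group was at 0, the median was -1.98. The summed level of the list was 162.9 and 190.8 CPM in control hair germ, 260.9 and 277.7 CPM in transgenic hair germ, 200.8 and 203.5 CPM in control IFE and 727.4 and 585.6 CPM in transgenic IFE. In IFE 9 of the 18 passed as higher, against 4.99% of all genes. Ddx58, the RNA sensor RIG-I, had a difference of -1.87 (SE 0.54, adjusted p = 0.263). Markers of T cells and Langerhans cells had a median of -1.32 over 9 tested genes, and none passed. Their summed level was 129.9 and 187.9 CPM in control hair germ, 234.8 and 190.3 CPM in transgenic hair germ, 118.4 and 169.3 CPM in control IFE and 215.4 and 282.3 CPM in transgenic IFE. Cd207, langerin, the defining gene of Langerhans cells, was at 0 in both control IFE libraries and at 3.51 and 4.53 CPM in transgenic IFE. In hair germ it stood at 2.02 and 0 CPM in controls 3 and 5 and at 1.41 and 0 CPM in transgenic pups 4 and 6. Its fitted difference was -8.21 (SE 4.26, adjusted p = 0.612), and -4.7 with 3 counts assumed for control IFE. Melanocyte markers had a median of -0.914 over 11 genes, which moved to -0.0699 with 3 counts in place of groups at 0, to 0.117 without control pup 3 and to 0.462 without control pup 5. Markers of fibroblasts, the dermal papilla, endothelium, Schwann cells and Merkel cells had 5 to 8 tested members each, and none passed.

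The lists of actin regulators and of focal adhesion and integrin genes had 1 member each that passed, Msn and Tln1. Both lay below 0, where 0.571% of all tested genes passed. Genes of related function outside these lists also passed, among them Itgam, Lcp1 (L-plastin, -3.06), Fmnl1 (-2.93) and Fermt3 (kindlin-3, -2.72), which leukocytes express. Lcp1, Fmnl1 and Fermt3 were named after their values were seen. Msn, moesin, links actin to the membrane and is a textbook target of miR-200. It stood at 271 and 338 CPM in control hair germ and 230 and 176 CPM in transgenic hair germ, and at 277 and 438 CPM in control IFE and 649 and 608 CPM in transgenic IFE. The effects were thus of opposite sign, -0.59 in hair germ and 0.81 in IFE, neither of which passed, while the difference of -1.44 (SE 0.23) did with an adjusted p of 0.0299 (0.212 without the block). Tln1, talin, which joins integrins to actin, stood at 344 and 401 CPM in control hair germ against 215 and 169 CPM in transgenic hair germ, and at 340 and 407 CPM in control IFE against 494 and 455 CPM in transgenic IFE. Its difference was -1.31 (SE 0.21, adjusted p = 0.03). Scaled without TMM, by total counts, Msn had an adjusted p of 0.195 and Tln1 of 0.213. The list medians were -0.169 over 34 actin regulators and -0.0303 over 28 focal adhesion and integrin genes, against 0.0673 over all genes. Pfn1, profilin, had a difference of -0.86 (adjusted p = 0.25) and Tns3, tensin, -1.44 (adjusted p = 0.122).

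The 5 genes above 0 had less in common. Igfbp3, a binding protein for insulin-like growth factors that basal keratinocytes make, stood at 50.2 and 35 CPM in control hair germ and 91.4 and 92.2 CPM in transgenic hair germ, and at 104 and 72.7 CPM in control IFE and 41.1 and 37.7 CPM in transgenic IFE. It was higher in transgenic than in control hair germ and lower in transgenic than in control IFE with no overlap of libraries, and the difference was 2.27 (SE 0.3, adjusted p = 0.0137, and 0.052 without the block). Col12a1, a collagen that associates with fibrils, stood at 929 and 1029 CPM in control and 1259 and 1093 CPM in transgenic hair germ, against 1302 and 1113 CPM in control and 496 and 512 CPM in transgenic IFE. Its difference was 1.52 (SE 0.22, adjusted p = 0.0188, and 0.286 when scaled by total counts). Fat4, a giant cadherin of planar cell polarity, stood at 73.8 and 32 CPM in control and 194 and 144 CPM in transgenic hair germ, and at 91.1 and 20.5 CPM in control and 34.8 and 24.9 CPM in transgenic IFE. The transgenic IFE levels of Fat4 lay between those of the controls, the difference was 2.37 (SE 0.36, adjusted p = 0.0255), and it was 1.4 without the 2 libraries rich in Rn45s and without the block.

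Tmem38b, a cation channel of the endoplasmic reticulum, stood at 324 and 28.8 CPM in hair germ of transgenic pups 4 and 6, against 4.74 and 5.12 CPM in control hair germ, 20.7 and 7.73 CPM in control IFE and 29.3 and 8.09 CPM in transgenic IFE. The 2 transgenic pups thus differed by a wide margin, and the difference of 4.14 (SE 0.66, adjusted p = 0.0293) had an adjusted p of 0.287 without the block. Mir5109 stood at 266 and 268 CPM in the 2 libraries rich in Rn45s and at 92.3 CPM in hair germ of pup 4, and at 0 to 7.2 CPM in the other 5. Its level thus moved with Rn45s. The difference of 3.92 (adjusted p = 0.014) was 0.0856 without those 2 libraries and without the block. Among the 5 genes the transgenic effect passed in hair germ for Tmem38b alone and in IFE for 2.

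Below the threshold, the 8 well-expressed genes with the smallest p above 0 were Wnt3, Lphn3, Kcnk2, Itpr3, Fat2, Thbs2, Col16a1 and Ppp1r14c, with adjusted p between 0.0771 and 0.105. Wnt3, a Wnt ligand of hair follicle epithelium, stood at 89 and 78.9 CPM in control and 162 and 135 CPM in transgenic hair germ, and at 136 and 95.8 CPM in control and 86.2 and 71.1 CPM in transgenic IFE. The genotypes did not overlap in either population, and the difference was 1.36 (SE 0.27, adjusted p = 0.0771). Fat2, a cadherin of epidermal cells, stood at 555 and 433 CPM in control and 563 and 555 CPM in transgenic hair germ, against 762 and 464 CPM in control and 322 and 341 CPM in transgenic IFE (difference 1.03, adjusted p = 0.0975). Thbs2, a matrix glycoprotein, stood at 11.7 and 20.1 CPM in control and 52.4 and 92.2 CPM in transgenic hair germ, against 16.9 and 27.1 CPM in control and 19.8 and 35.1 CPM in transgenic IFE (difference 1.87, adjusted p = 0.0989). For comparison, the least extreme gene that passed above 0 had an adjusted p of 0.0293.

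Most lists of keratinocyte genes had a larger share of members above 0 than all genes had. The lists of basal epidermis, hair germ and placode, the Hedgehog and Wnt pathways, desmosome, adherens and tight junction, apical-basal and planar cell polarity and basement membrane held 205 distinct genes. Of these, 159 lay above 0 (77.6%, against 54.5% of all genes), the median was 0.376 against 0.0673, and Igfbp3 and Fat4 passed (0.976%). These 10 lists were pooled with earlier results known. Outside the pool, 17 of 29 Bmp and Tgf-beta genes, 13 of 28 focal adhesion and integrin genes and 8 of 16 Eda and NF-kB pathway genes lay above 0, as did 14 of 18 Notch pathway genes and 17 of 23 suprabasal differentiation genes. Basal epidermis had 17 of 20 above 0 with a median of 0.449, and its transgenic effect had a median of -0.34 in hair germ and -0.84 in IFE. Basement membrane genes had 20 of 23 above 0 with a median of 0.45. These medians were above 0 under all 21 other ways of processing the data. They ran from 0.165 to 0.57 for basal epidermis and from 0.275 to 0.687 for basement membrane. Those ways reuse the same libraries in whole or in part, so the kept sign is no independent support. The transgenic IFE libraries held the higher levels of leukocyte genes given above, and the part this played in the keratinocyte values was not tested. CPM are shares of a library, so the levels of different gene sets within a library are not independent.

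Trp63, the transcription factor that maintains basal keratinocytes, stood at 1231 and 1075 CPM in control and 1339 and 1093 CPM in transgenic hair germ, and at 1108 and 1089 CPM in control and 598 and 651 CPM in transgenic IFE. The hair germ groups overlapped and the IFE groups did not, with a difference of 0.89 (SE 0.22, adjusted p = 0.171). The 3 genes that define the sort were Krt14, Itga6 and Cdh3. Krt14, keratin 14, stood at 8137 and 7588 CPM in control and 5152 and 4277 CPM in transgenic hair germ, and at 9082 and 11680 CPM in control and 4684 and 5102 CPM in transgenic IFE, a difference of 0.33 (SE 0.25, adjusted p = 0.77). Itga6, α6 integrin, had a difference of 0.45 (SE 0.23, adjusted p = 0.605). Cdh3, P-cadherin, stood at 353 and 436 CPM in control and 421 and 576 CPM in transgenic hair germ, and at 293 and 386 CPM in control and 281 and 309 CPM in transgenic IFE, a difference of 0.52 (SE 0.22, adjusted p = 0.503). Cdh3 RNA was thus higher in hair germ than in IFE within each pup.

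**Figure D3:**
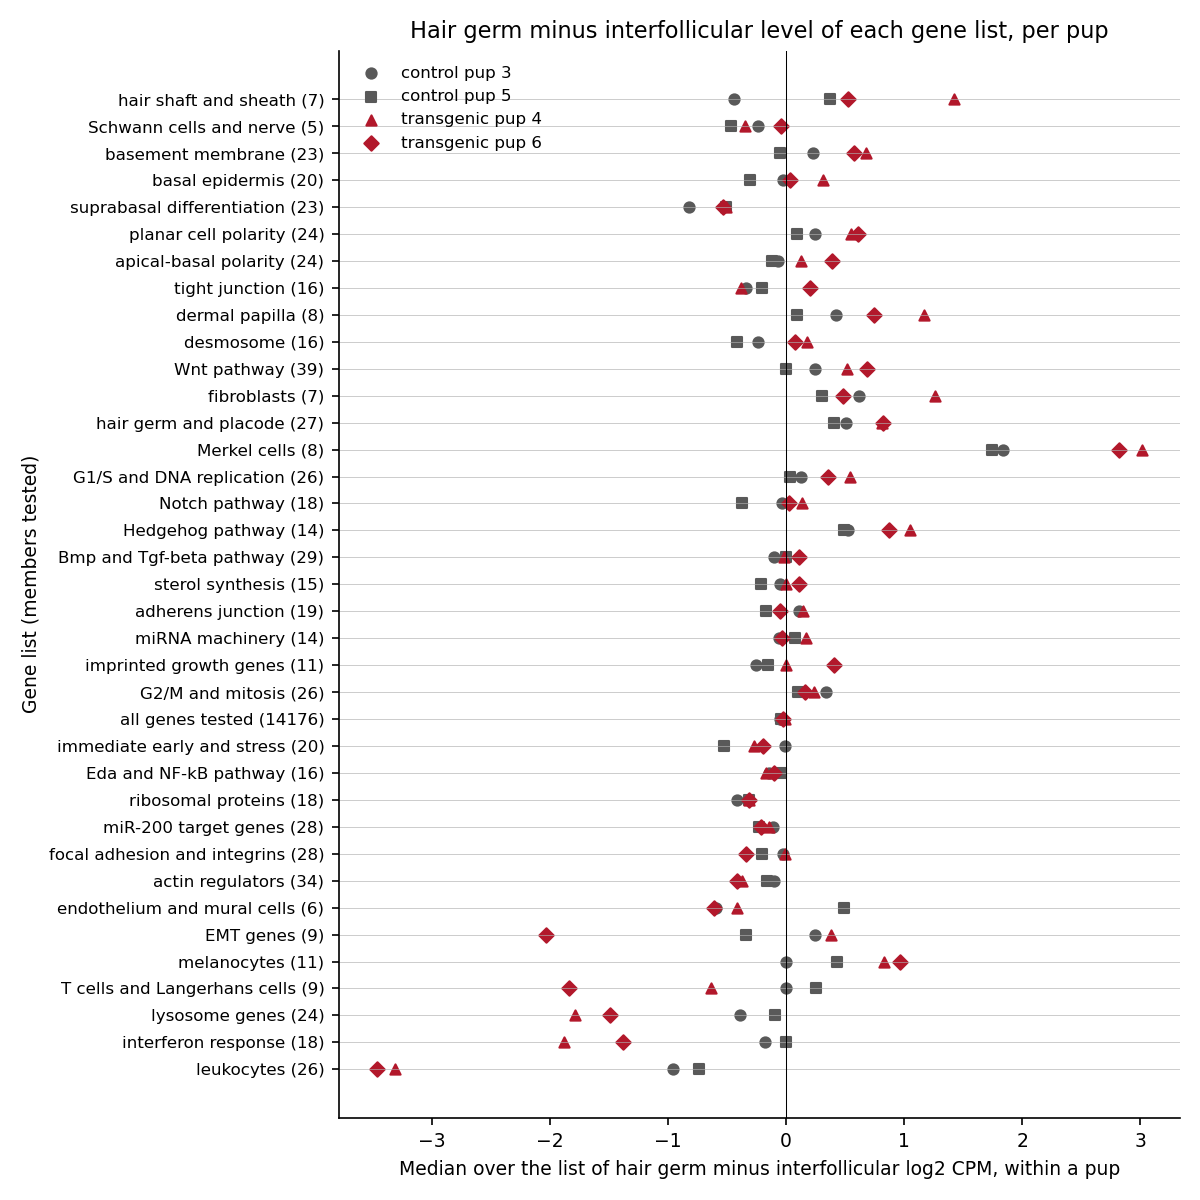
Median over each gene list of hair germ minus IFE log2 CPM (prior count of 2) in each of the 4 pups, with the number of tested members in brackets; lists are ordered by the median difference of effects. Leukocyte markers lie at -3.31 and -3.46 in transgenic pups 4 and 6 and at -0.956 and -0.74 in control pups 3 and 5, while most keratinocyte lists lie slightly further right in transgenic pups.

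Junction and polarity genes had medians of 0.374 for 16 desmosome genes, 0.173 for 19 adherens junction genes, 0.396 for 16 tight junction genes, 0.408 for 24 apical-basal polarity genes and 0.426 for 24 planar cell polarity genes. Fat4 was the only one to pass in these 5 lists, and the number above 0 was 14 of 16, 12 of 19, 11 of 16, 19 of 24 and 21 of 24. Over all tested genes 54.5% lay above 0 and 0.607% passed, with a median of 0.0673. Pkp1, a desmosomal plaque protein, stood at 1379 and 976 CPM in control and 1185 and 1162 CPM in transgenic hair germ, and at 1932 and 1299 CPM in control and 930 and 795 CPM in transgenic IFE (difference 0.9, SE 0.2, adjusted p = 0.115). Fzd6, a Frizzled receptor of planar cell polarity that orients hair follicles, stood at 107 and 71.5 CPM in control and 126 and 139 CPM in transgenic hair germ, and at 202 and 100 CPM in control and 88.9 and 93 CPM in transgenic IFE (difference 1.25, SE 0.27, adjusted p = 0.109). Pard3b, a polarity scaffold, stood at 8.17 and 16.7 CPM in control and 40.9 and 41.9 CPM in transgenic hair germ, and at 23.2 and 22.6 CPM in control and 21.9 and 16.6 CPM in transgenic IFE (difference 2.01, SE 0.52, adjusted p = 0.207). For these 3 genes the hair germ minus IFE values of the transgenic pups exceeded those of the controls, as they did for 21.6% of all tested genes, while they lay below them for 18.2%.

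No gene passed in the Wnt, Hedgehog and Notch pathways or among hair germ and placode genes, while Tgfbr1 passed among Bmp and Tgf-beta genes, as given above. The median was 0.347 over 39 Wnt pathway genes, with 31 above 0, 0.278 over 14 Hedgehog pathway genes, with 11 above 0, 0.283 over 18 Notch pathway genes, with 14 above 0, and 0.32 over 27 hair germ and placode genes, with 16 above 0. The last of these was -0.0528 without the 2 libraries rich in Rn45s and without the block. Over all tested genes the median was 0.0673, and 54.5% lay above 0. Shh, the Hedgehog ligand of the bud, stood at 31.3 and 14.9 CPM in control and 42.9 and 143 CPM in transgenic hair germ, against 6.27 and 6.71 CPM in control and 5.8 and 14.1 CPM in transgenic IFE. Shh was thus higher in hair germ than in IFE of every pup, and pup 6 stood apart from pup 4 in both populations (difference 1.52, SE 0.54, adjusted p = 0.405). Smo, the membrane protein through which Hedgehog signals pass, stood at 247 and 213 CPM in control and 175 and 229 CPM in transgenic hair germ, against 242 and 202 CPM in control and 116 and 107 CPM in transgenic IFE (difference 0.8, SE 0.25, adjusted p = 0.337). The effect on Smo in IFE passed (log2 fold change -1, adjusted p = 0.0171) and that in hair germ did not (-0.19, adjusted p = 0.696), yet their difference did not pass either. Vdr, the vitamin D receptor, had a difference of 1.42 (SE 0.36, adjusted p = 0.192).

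Differentiation and cell cycle genes showed no member that passed. Suprabasal differentiation genes, which build the upper layers of the epidermis, had 17 of 23 above 0 with a median of 0.441, and 26 genes of G1/S and DNA replication had 21 above 0 with a median of 0.292. Genes of G2/M and mitosis had a median of 0.097 over 26, and ribosomal protein genes 0.0342 over 18, both near the 0.0673 of all genes. Of all tested genes, 54.5% lay above 0. Krt73, a keratin of the inner root sheath, stood at 3.69 and 0.133 CPM in control and 22.1 and 18.1 CPM in transgenic hair germ, and at 31.2 and 1.02 CPM in control and 12.5 CPM in both transgenic IFE libraries. The controls differed strongly from each other, and the difference of 3.73 (adjusted p = 0.0847) was -0.0509 without the 2 libraries rich in Rn45s and without the block. Ier3, an immediate early gene, lay on the other side at -2 (SE 0.37, adjusted p = 0.0583), with 37.3 and 53.8 CPM in control and 14.7 and 14.3 CPM in transgenic hair germ, and 35.5, 70.4, 61.9 and 69.8 CPM in IFE of pups 3, 5, 4 and 6.

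Genes with a miR-200 site in the 3′ untranslated region had nearly the same median difference of effects as genes without one. Sites were searched on the messenger strand as CAGTATTA, which pairs with the AAUACUG seed, and CAGTGTTA, which pairs with the AACACUG seed, both shown in capitals in the Zeb2 and Msn sequences above. Of 13322 tested genes with an annotated region, 1113 held either site and 12209 held neither. The median difference was 0.0437 with a site and 0.0669 without. The transgenic effect had a median of -0.119 with a site and 0.0563 without in hair germ, and -0.156 with a site and 0 without in IFE. Among regions of at least 2000 bases the medians with and without a site were -0.124 and 0.0546 in hair germ and -0.186 and -0.0408 in IFE, and the difference of effects was 0.0595 and 0.0868. The medians with a site lay below those without in both populations, and they are given as descriptions. Of the genes with a site 0.449% had a called difference and of those without 0.655%. Among 118 genes with 2 or more sites, 4 had one (3.39%, median 0.0145), and among 60 genes with both kinds of site 2 did (3.33%, median -0.12), against 0.638% of all 13322. The 5 called genes with a site were Zeb2, Msn, Ankrd44, Dock10 and Dpysl2, all with a difference below 0, which is the side where transgenic IFE held the higher level. Of 28 tested textbook targets of the family, 2 passed (Zeb2 and Msn), and the median was -0.0151. Over all tested genes 0.607% passed and the median was 0.0673.

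The promoters of the genes below 0 were searched for GAGGAAGT, the core recognised by the myeloid Ets factor PU.1 (Sfpi1) and by other Ets factors, on both strands within 250 bases before the RefSeq start site (GRCm38.p6). Of 64 genes below 0 with a promoter in the table, 5 held the motif (7.81%), against 322 of 11136 tested genes (2.89%) and 755 of 27025 promoters in all (2.79%). A gene counted if the motif lay before any of its listed start sites. The 60 bases before a start site of 3 of them are shown with the motif in capitals, on the plus strand. Fmnl1 holds it in reverse orientation. Its stretch lies inside the RefSeq gene, which begins at 103171004, and so comes before a later start site.

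Inpp5d at chr1:87620252-87620311: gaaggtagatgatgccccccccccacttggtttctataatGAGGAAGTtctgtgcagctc

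Havcr2 at chr11:46454871-46454930: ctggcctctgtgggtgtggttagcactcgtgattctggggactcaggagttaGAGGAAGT

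Fmnl1 at chr11:103171078-103171137: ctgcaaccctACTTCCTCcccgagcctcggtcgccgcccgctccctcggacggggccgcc

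Inpp5d, a lipid phosphatase of blood cells, Havcr2, an immune checkpoint receptor, and Fmnl1, a formin of leukocytes, had differences of -2.95, -3.14 and -2.93. Inpp5d stood at 22.4, 3.12, 29.8 and 25 CPM in hair germ of pups 3, 5, 4 and 6 and at 17.6, 6.28, 274 and 205 CPM in their IFE. The match is a description of these letters and does not show that the factor binds there.

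Across genes, the effects in the populations ran in the same direction more than in opposite ones. The Pearson correlation between the hair germ and IFE effects was 0.356 over all tested genes (Spearman 0.392) and 0.614 over the 7676 well-expressed genes, whose mean log2 CPM reached 4 (Spearman 0.501). These are correlations across genes, which are not independent, and each effect comes from its own 4 libraries of the same 4 pups, so whatever sets a pup apart enters both. In hair germ 135 genes passed (0.952%), 108 as higher (0.762%) and 27 as lower (0.19%), and in IFE 899 (6.34%), 707 as higher (4.99%) and 192 as lower (1.35%). Of these, 67 passed as higher and 18 as lower in both populations, and none passed in opposite directions. Of the 814 genes that passed in IFE and not in hair germ, the difference itself passed for 76, and of the 50 that passed in hair germ and not in IFE it passed for 1. A gene called in only 1 population was therefore in most cases not shown to differ between them. The difference had a median SE of 0.589 (log2) over all genes and 0.364 over the well-expressed ones. Of all tested genes, 1986 had a fitted difference above 1 and 2004 below -1.

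The transgenic pups were alike in how hair germ differed from IFE, and the controls were less so. The hair germ minus IFE values of transgenic pups 4 and 6 had a Pearson correlation across genes of 0.473 (0.745 over well-expressed genes), and those of control pups 3 and 5 had 0.0649 (0.26). A control and a transgenic pup gave 0.128 to 0.193 (0.336 to 0.378). In IFE of control pup 3, which is rich in Rn45s, 21 of 26 leukocyte markers exceeded those of control pup 5, and in its hair germ 13 did. In IFE of transgenic pup 4, the other library rich in Rn45s, 23 of the 26 exceeded those of transgenic pup 6. In hair germ of pup 4, 20 did. All 86 genes that passed kept the sign of their difference under all 21 other ways of processing the data, and the number that passed ranged from 0 to 284. The 86 genes were chosen in these same libraries, which the other ways reuse in whole or in part. The kept sign is therefore no independent support.

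**Figure D4:**
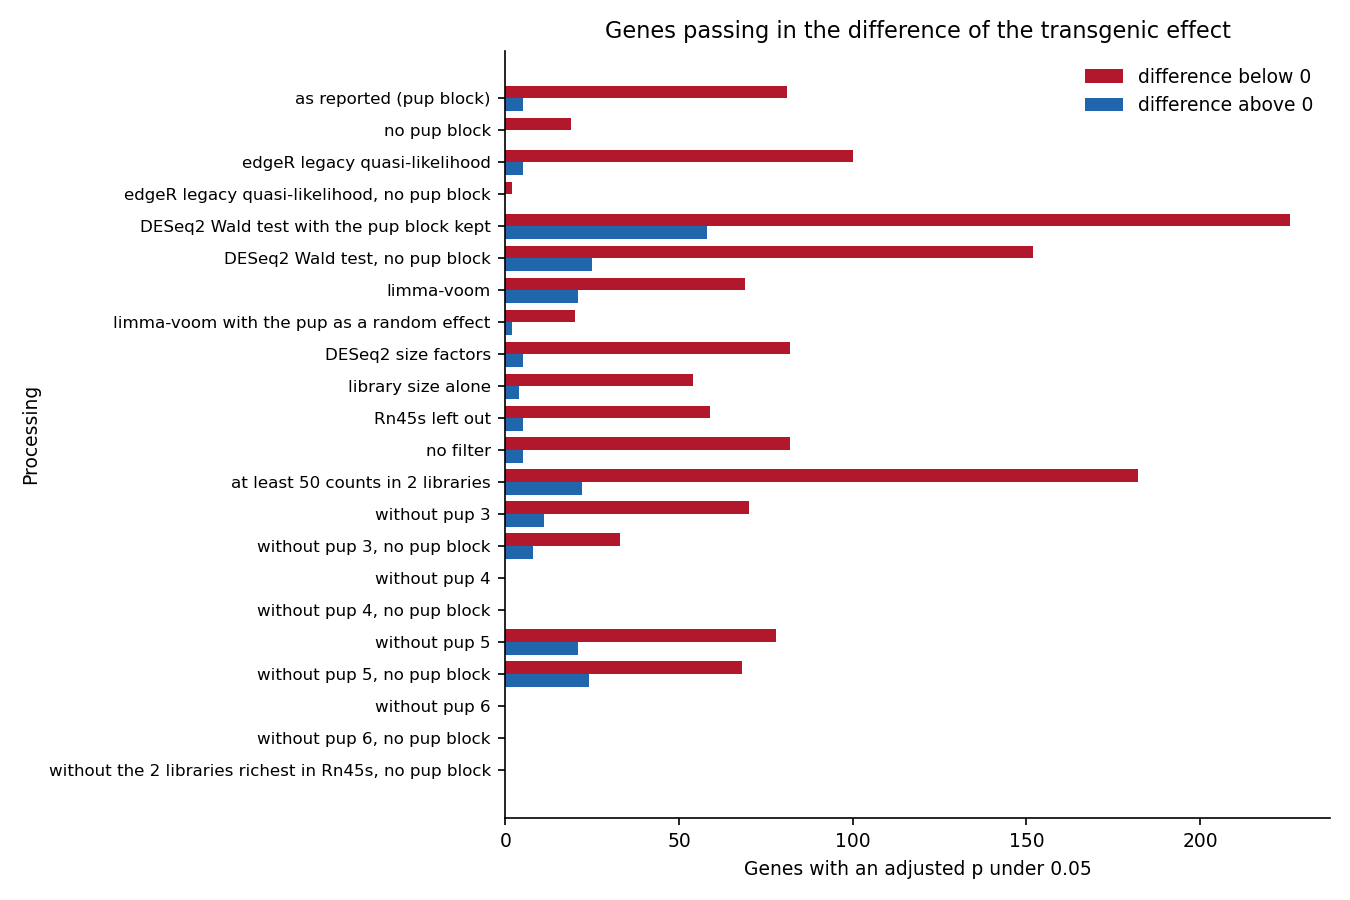
Number of genes with an adjusted p under 0.05 for the difference of effects below 0 (red) and above 0 (blue) as reported and under each of the 21 other ways of processing the data. Where a pup or the libraries rich in Rn45s were left out, some groups held a single library. Bars reach 226 genes below 0 and 58 above 0 with the DESeq2 Wald test, and they are empty without pup 4, without pup 6 and without the 2 libraries rich in Rn45s.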

How the data were processed

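Low-input stranded total RNA libraries (SMARTer kit) were made from sorted cells after Trizol extraction, per the labels' protocols. The authors deposited raw counts per gene symbol, 1 file per library. TopHat, HTSeq, DESeq2 and the mm10 (GRCm38) build are named in the submitters' processing notes. Their versions, the strand setting and the position of miR200primary are not stated in those notes or labels, and without the strand setting the reads of overlapping or antisense genes cannot be told apart. The 5 HTSeq summary lines were left out, and the authors' normalised matrix was not used here.

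Counts were scaled by TMM. The 14176 genes kept by filterByExpr were fitted with the quasi-likelihood method of edgeR 4.0.16 (legacy set to FALSE) in R 4.3.3. The model held 4 pups and hair germ minus IFE in each genotype, which left 2 residual degrees of freedom. Tests were two-sided, with a Benjamini-Hochberg threshold of 0.05. Each SE was derived from the fold change and its F statistic. Effects within a population come from a fit of 4 group means, with 4 residual degrees of freedom. A pup number marks the same animal in both populations, per the labels. The correlation across genes of a pup's deviations from its group means in the 2 populations was 0.117 in controls and 0.0868 in transgenic pups, and 0.363 and 0.24 over the 7676 genes whose mean log2 CPM reached 4. Pups are biological replicates. A count of 0 allows up to 3 counts, or 0.199 to 0.522 CPM per library, and such limits cover counting error only.

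Named genes were, of those past the threshold with a mean log2 CPM of 2 or more and per-pup values that do not overlap between genotypes, the 12 largest differences in each direction. Where fewer than 6 qualified, up to 8 well-expressed genes with the smallest p were added. The rule also took up to 2 members of each list, by smallest p, the sort genes Cdh3, Itga6 and Krt14, and miR200primary, Zeb1 and Zeb2. Predicted and clone-named genes were left out. The 39 gene lists held 774 entries, of which 751 were found. The comparison, the lists and the rules were chosen with earlier results of these data known. The fit was tested on simulated data. Alternatives used DESeq2 1.42.0, limma 3.58.1, other scalings and filters, and libraries left out. One result is not reported here.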

Additional observations from a re-analysis of the deposited data

Results flagged for a closer look

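The difference of the transgenic effect between hair germ and IFE was itself tested, and 86 genes passed (edgeR quasi-likelihood, pup as a block). The named genes among them that lay below 0, where the effect was larger in IFE, had log2 differences of -9.28 for Pde1b, -4.4 for Cacna1d, -4.34 for Nlrp3, -4.17 for Fcrls, -3.96 for Rab3il1, -3.74 for both Fcgr3 and Fgd2, -3.69 for Dock2, -3.6 for Fes, -3.48 for Zeb2, -3.45 for Tsc22d3, -3.44 for Pik3r5, -3.3 for Itgam and -3.21 for Ctsz. Those of -2.99 for Mrc1, -2.77 for Ctss, -2.51 for Vim, -1.87 for Tgfbr1, -1.44 for Msn and -1.31 for Tln1 were smaller in size. Above 0 were 4.14 for Tmem38b, 3.92 for Mir5109, 2.37 for Fat4, 2.27 for Igfbp3 and 1.52 for Col12a1. No group held enough libraries to look for single libraries that stand apart.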

How the results depend on the processing

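The count of 86 genes (5 above 0, 81 below) moved with the model of the pup and the test more than with the scaling. Without the replicate block, which drops the pairing by pup, 19 passed (0 above, 19 below), and 2 with edgeR's legacy method (0 and 2). DESeq2's Wald test gave 284 (58 and 226) with the block and 177 (25 and 152) without it, limma-voom gave 90 (21 and 69), and limma-voom with the pup as a random effect gave 22 (2 and 20). A filter of at least 50 counts in 2 libraries gave 204 (22 and 182). With 1 pup left out, the total ranged from 0 to 99, with 0 to 21 above 0 and 0 to 78 below. Leaving out a pup and the block gave 41 (8 and 33) without pup 3, 92 (24 and 68) without pup 5 and 0 without pup 4 or pup 6, and leaving out the 2 libraries richest in Rn45s and the block gave 0. That last setting left a single library in each IFE group. Where a transgenic pup was left out, the spread of the other was assumed to be that of the controls, and the cause of the changes was not tested. Scaling by library size alone moved the median of all genes from 0.0673 to -0.0484. Over the 25 named genes that passed and 21 alternatives, 270 values stayed past the threshold and 255 did not, and none changed sign. These genes were chosen in the same libraries, so the kept sign is no independent support. Zeb1 was at 0.308 with the legacy method, 0.403 with DESeq2 and the block and 0.727 with the random effect. With 1 pup left out, the range included a change of sign for Zeb1 (-0.842 to 3.97), Krt18 (-2.94 to 0.599), Rab3c (-0.482 to 3.47), Xpo5 (-0.00859 to 0.73) and Acta2 (-2.29 to 0.0411), and for the medians of melanocytes (-1.44 to 0.462), Merkel cells (-0.0766 to 0.775), tight junction (-0.00365 to 0.353) and sterol synthesis (-0.109 to 0.221). Without the block as well, these turned to 3.97, 0.612, -0.566, -0.00451 and 0.197 for the genes, and to 0.0906 (without pup 3) and 0.42 (without pup 5), -0.303, -0.00211 and -0.0498 for the medians, in the same order. The filter of 50 counts put dermal papilla at -0.0427. Without the 2 libraries richest in Rn45s, Krt73 and hair shaft and sheath were at -0.0509, hair germ and placode at -0.0528, Xpo5 at -0.0408, Acta2 at 0.149 and actin regulators at 0.0555. Depth limits genes near 0.199 to 0.522 CPM, the most that a count of 0 allows in a library.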

Other observations

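Among the genes below 0 that the rule for named genes did not take, and that were chosen after their values were seen, the ferritins and an antigen presentation gene were well expressed in every library. Ftl1, the light chain of the iron store ferritin, stood at 201 and 240 CPM in control hair germ, 244 and 184 CPM in transgenic hair germ, 201 and 234 CPM in control IFE and 1011 and 735 CPM in transgenic IFE, a difference of -2.04 (edgeR adjusted p = 0.00642). Fth1, the heavy chain, had a difference of -1.42 (adjusted p = 0.0299), with 730 and 502 CPM in transgenic IFE and 140 to 294 CPM in the other 6 libraries. B2m, the invariant chain of class I major histocompatibility molecules, stood at 24.7 to 48.6 CPM in those 6 libraries and at 250 and 243 CPM in transgenic IFE, a difference of -2.36 (adjusted p = 0.0196). Lrp1, an endocytic receptor that keratinocytes also express, stood at 481 and 370 CPM in control and 460 and 336 CPM in transgenic hair germ, and at 432 and 354 CPM in control and 1688 and 1218 CPM in transgenic IFE (difference -1.98, adjusted p = 0.00642). In these 4 genes all hair germ and control IFE libraries lay in a common range and both transgenic IFE libraries lay above it.

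Cxcr4, a chemokine receptor, and Cxcl16, a membrane-bound chemokine, also passed. Cxcr4 stood at 119 and 61.6 CPM in transgenic IFE against 12.7 to 25 CPM in the other libraries (difference -3.12, adjusted p = 0.0141). Cxcl16 stood at 548 and 462 CPM in transgenic IFE against 37.9 to 214 CPM (difference -1.49, adjusted p = 0.0483).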
